A study of Mus musculus with 96 samples.

Results

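The cells described here are mouse embryonic fibroblasts (MEFs), 1 cell per well, from a 96-well plate. Members were the wells labelled MEF that held at least 10000 reads on gene rows, and all 44 labelled wells passed, so they make up 44 of the 96 wells. The plate also carried 48 R1 embryonic stem cells and 4 negative control wells, and only the negative controls are used below, as background. Transcripts were read by single-cell tagged reverse transcription (STRT), which writes a well barcode into the cDNA, sequences from the 5′ end of each transcript and keeps its strand. The MEFs had been kept in DMEM with fetal bovine serum, penicillin/streptomycin, Glutamax and 2-mercaptoethanol, and no treatment was applied. Strain, embryonic age, passage and number of embryos are not among the labels. The labels give R1, an embryonic stem cell line, as the source line of the MEF wells as well, which does not match their cell type, and the cell type label was followed. No separate cultures are named, so the 44 cells were treated as 1 culture. Cells are not replicates of a culture, and every value below is a description of these cells with no test.

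Fibroblasts build and remodel the matrix of connective tissue. They secrete collagens, fibronectin and proteoglycans, cut them with metalloproteinases, and pull on them through integrins and actin cables. On culture plastic many take on features of a myofibroblast, a contractile state marked by smooth muscle actin, and primary cultures of embryonic fibroblasts slow their division over passages as p53 targets and inhibitors of the cell cycle accumulate. The questions answered here are which transcripts dominate a MEF, how many cells hold each transcript, which genes differ most and least from cell to cell, and which genes vary together.

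The MEF wells held between 63938 and 1883709 gene reads, with a median of 851801. The number of genes with a read ranged from 1395 to 8144 with a median of 5909.5, and its Spearman rho with gene reads over the 44 cells was 0.94. When every cell was thinned to 50000 gene reads, the range was 1361 to 6023. MEF 53 was the shallowest well and had the fewest genes, the highest share of mitochondrially encoded reads (7.31%, against a median of 0.62%) and the fewest gene reads per spike-in read (41.4, against a median of 152). MEF 80 was the cell least like the others, with a median rho of 0.284 to the other cells over measured genes, against a median of 0.401 for all cells. This likeness had itself a rho of 0.78 with gene reads, of which MEF 80 held 157772. With every cell thinned to 50000 gene reads, MEF 80 was still the lowest, at 0.265 against a median of 0.376. The rho of the thinned likeness with gene reads was 0.76, and the part of depth in it was not tested. The wells without a cell gave 4356, 4662, 3273 and 236 gene reads. Wells in plate rows A to D (24 MEFs) and E to H (20 MEFs) are called the upper and the lower plate below, and values are given for each where they differ.

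The 5 fibroblast markers were all read, and 3 of them were read in every cell. The 4 negative control wells held 314 reads on these 5 rows together, so a few reads in a cell can be carry-over. Fn1 (fibronectin, chromosome 1, 71585473 to 71653280 in RefSeq's GRCm38.p6) was the most abundant gene row, at 14529 CPM (its reads when all gene reads of a cell or group are scaled to 1000000) over all MEFs together, with an exact Poisson interval of 14489 to 14569 for counting error. Its per-cell level ranged from 2091 to 54347 CPM with a median of 10683, and the SD of its log2 level over the 8 plate rows was 0.63. Thbs1 (thrombospondin 1, a matrix glycoprotein that binds cell surfaces; chromosome 2, 118111876 to 118127133) was next at 14041 CPM, with per-cell values of 539, 12764 and 35178 CPM at the lowest, median and highest cell. Fn1 and Thbs1 were present in every MEF, and even their lowest cells stood far above 0.

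Col1a2 (the alpha 2 chain of type I collagen; chromosome 6, 4505618 to 4541543) ranked 20 at 3627 CPM and was read in 43 cells. Its per-cell level had a median of 3438 and a highest value of 13331 CPM, with 33 cells above 1000 CPM and 5 at or below 100 CPM. Acta2 (smooth muscle alpha actin; chromosome 19, 34240336 to 34255585) ranked 50 at 2092 CPM and was read in all cells, from 1.75 CPM to 9645 CPM with a median of 1226. The lowest value, in MEF 84, could be carry-over. Thy1 (a surface glycoprotein used to sort fibroblasts; chromosome 9, 44043384 to 44048579) was the least even marker. It ranked 460 at 332 CPM and was read in 35 of 44 cells (79.5%, exact binomial interval 64.7 to 90.2%). Its median cell held 62.5 CPM and its highest 2101 CPM, and 9 cells had no read. The 5 markers were thus all present, as the cell type label says, with Thy1 the one that most cells held at a low level.

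**Figure D1:**
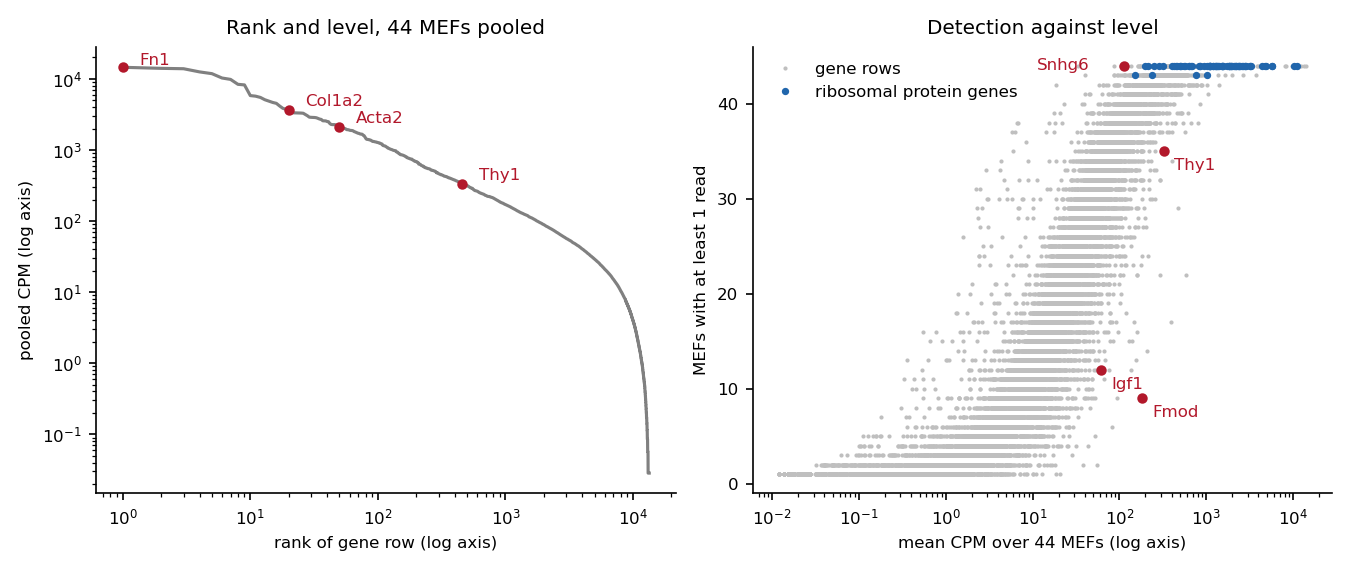
Left, pooled CPM of each gene row against its rank over the 44 MEFs, both on log axes, with 4 of the fibroblast markers in red. Right, the number of MEFs with at least 1 read against mean CPM (log axis), where ribosomal protein genes (blue) lie at or near 44 cells and Fmod and Igf1 lie far below other rows of their mean.

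Few transcripts made up a large part of each cell's gene reads. The 100 most abundant of the gene rows held 31.7% of gene reads over all MEFs (SD over plate rows 3.57 percentage points), the top row held 1.45%, and 389 rows held 50%. Within single cells the 100 highest rows of that cell held 27.3% to 51.6%, with a median of 35.5%. Ribosomal protein genes supplied 44 of the 100 rows and 14.7% of all gene reads, and their summed share per cell ran from 5.22% to 25.4% around a median of 14.1%. Ribosomal protein genes thus held at least 5.22% of the gene reads of every MEF, and the share differed between cells.

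The 25 most abundant rows fall into a few roles. Besides Fn1, Thbs1 and Col1a2, the matrix was represented by Sparc (osteonectin, a collagen-binding protein) at 3729 CPM. Actin and its partners were Actb at 9818 CPM, Actg1 at 3324 CPM, Tpm1 (tropomyosin 1, which lines the actin filament) at 5473 CPM, Cald1 (caldesmon, a brake on actin-myosin binding) at 3317 CPM and Tmsb4x (thymosin beta 4, which holds actin monomers) at 4649 CPM. Vim (vimentin, the intermediate filament of mesenchymal cells) stood at 3298 CPM and S100a6 (a calcium-binding protein) at 8213 CPM. Ribosomal proteins ranged from Rpl4 at 12516 CPM and Rpl41 at 10268 CPM down to Rpl13a at 3302 CPM, and the elongation factor Eef1a1 reached 3846 CPM. Reads came from transcript 5′ ends, so CPM were not divided by transcript length. A read that maps to several genes counts for each of them, so levels of genes with near-identical copies, many ribosomal protein genes among them, are uncertain where the share of unique reads is low.

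Ferritin light chain, an iron store, gave the third and the fifth rank under the names Ftl1 (13865 CPM) and Ftl2 (11824 CPM), but only 10.6% and 1.54% of the reads on these rows over the whole plate were unique, so both rows largely counted the same reads and their own levels are uncertain. The ferritin heavy chain Fth1 was fully unique at 1813 CPM. Malat1, a nuclear non-coding RNA, ranked 8 at 8367 CPM and mt-Co1, a mitochondrially encoded subunit of cytochrome oxidase, ranked 17 at 4141 CPM.

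The leading gene was not the same in each cell. Fn1 was the top row in 11 MEFs, Ftl1 in 8, Thbs1 in 7, Rpl4 in 6 and S100a6 in 4. Actb, Malat1 and Rpl41 led in 2 cells each, and Myadm and mt-Co1 in 1 cell each. In MEF 50, Myadm (a membrane protein of the myeloid differentiation-associated family) held 18771 CPM, while its median over the cells was 491.6 CPM.

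Of 21711 gene rows, 13406 had a read in a MEF, and 1292 of these were read in exactly 1 cell. Reads in at least 22 cells were seen for 5303 rows. Only 323 rows, 2.41% of the rows with a MEF read, were read in all 44 cells, and 213 were when cells were thinned to 50000 reads. Ribosomal protein genes contributed 73 of the 323 rows out of 77 such genes in the table. Of the other lists, 13 of 26 actin cytoskeleton genes and 13 of 19 translation factors were in all cells, against 7 of 17 lysosomal genes, 6 of 28 matrix glycoproteins and proteoglycans and 3 of 17 collagens. No S phase gene (0 of 23) and no G2 or M phase gene (0 of 24) was in all cells. For lists of this size, that is near the 2.41% over all rows with a MEF read.

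Detection followed the level closely. Rows at 10 to 30 CPM were read in a median of 17 cells, rows at 30 to 100 CPM in 29, rows at 100 to 300 CPM in 39 and rows at 300 to 1000 CPM in 43. Of the 130 rows at 1000 CPM or more, 120 were in all cells. Some rows departed from this course, and they were picked after their values were seen. Gm12070, a predicted gene, was read in all 44 cells at only 32.9 CPM, with a highest cell of 132 CPM. Snhg6, a host gene of small nucleolar RNA, was read in all cells at 100.1 CPM and Hnrnpa3, an RNA-binding protein, at 104.4 CPM. None of these 3 had more than 2 reads in the 4 negative control wells together. A read in a cell can also be carry-over: 1678 rows had a read in a negative control well, and 271 of the 323 rows in all MEFs were among them.

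At the other end, rows of at least 50 CPM were sometimes confined to a few cells. Fmod (fibromodulin, a proteoglycan of tendon that binds collagen fibrils) stood at 110.5 CPM over all MEFs but was read in 9 cells (20.5%, exact binomial interval 9.80 to 35.3%), and MEF 78 alone, at 7662 CPM, held 96.3% of its summed CPM. Tbx18 (a transcription factor of pericytes and somites) was also read in 9 cells, and MEF 81 held 85.3% of it. Igf1 (insulin-like growth factor 1) was read in 12 cells with 59.4% in MEF 57, and Cdk6 (a kinase of G1 progression) in 12 cells with 46.5% in 1 cell. In all 4 genes most MEFs were at 0, and for Fmod, Tbx18 and Igf1 a single cell held most of the summed CPM.

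Cell-to-cell spread was measured on 3261 rows with a mean of at least 50 CPM and at least 50% unique reads. The coefficient of variation (CV, the SD over cells divided by the mean) fell with the level. Its median was 1.46 for rows of 50 to 64.7 CPM and 0.787 for rows above 236.8 CPM. Each row was therefore set against the 200 rows of nearest mean, and its relative spread is the log2 ratio of its CV to their median CV. A value of 0.5 or more was called wide and -0.5 or less narrow. By this rule 685 rows (21%) were wide and 328 (10.1%) narrow. The 201 rows of highest mean, from 640.4 CPM up, share 1 reference, in which 56 rows are ribosomal protein genes. The 2 most abundant spike-in RNAs had a CV of 0.208 and 0.210 in their share of spike-in reads.

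**Figure D2:**
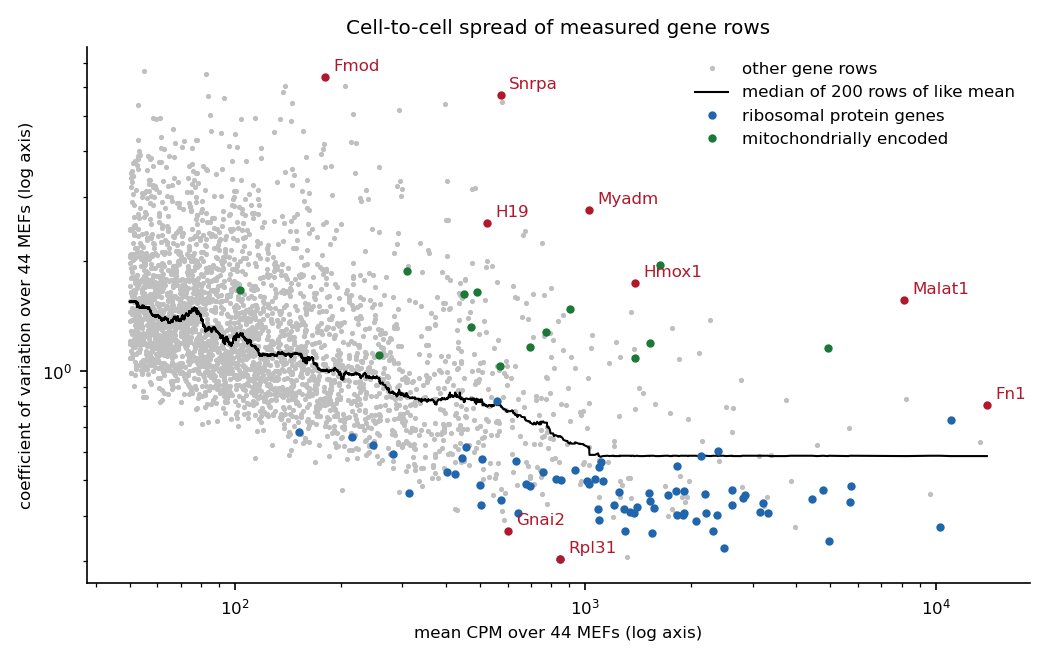
Coefficient of variation over the 44 MEFs against mean CPM for the 3261 measured rows, both on log axes, with the median of the 200 rows of nearest mean as a black line. Ribosomal protein genes (blue) lie mostly under the line and mitochondrially encoded genes (green) over it, and the red labels mark named wide and narrow rows.

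Among the narrowest rows were genes of translation, signal relay and protein folding, with roles common to most cell types. Rpl31 (large ribosomal subunit) had the lowest relative spread, -1.12, with a CV of 0.304 and per-cell values of 190.1, 862 and 1367 CPM at the lowest, median and highest cell. Gnai2 (an inhibitory G protein alpha subunit) followed at -1.09, from 241.5 to 1054 CPM around a median of 573.7. Ywhab (a 14-3-3 adaptor protein) had -1.05, Arf4 (a GTPase of Golgi transport) -1.04, Gnb2 (a G protein beta subunit) -1.03 and Dnaja2 (a co-chaperone of Hsp70) -1.02. Gnb2l1, now called Rack1 (a scaffold on the small ribosomal subunit), ranged from 464.8 to 2197 CPM with a relative spread of -0.92.

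The other narrow rows were Rps13 and Rps18 of the small ribosomal subunit, Ppia (cyclophilin A, a protein-folding enzyme), Tceb2 (elongin B), Pfdn5 (prefoldin, which hands actin and tubulin to the folding machine), Tomm22 (the mitochondrial import receptor), Ncbp2 (which binds the mRNA cap) and the predicted gene Gm12191, of whose reads on the plate 74.5% were unique. Their relative spread ran from -1.02 to -0.90. For Rpl31 the value was -1.23 on the upper and -1.05 on the lower plate, and for Gnai2 it was -1.09 and -1.03, so both were narrow on either part. Of the 328 narrow rows, 125 were narrow on both parts of the plate, and 124 were still narrow without their highest cell.

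In most of the widest rows a single cell held the bulk of the signal. Snrpa (a protein of the U1 splicing particle) had the largest relative spread, 2.84. It was read in 37 cells with a median of 18.4 CPM, and MEF 83 held 21694 CPM, 86% of the sum, against 1614 CPM in the next cell. Ntf3 (neurotrophin 3) at 2.79 was read in 22 cells, and MEF 53 held 21020 CPM against 1345 CPM in the next. Sort1 (sortilin, a sorting receptor) at 2.69 was read in 17 cells and reached 14021 CPM in MEF 66, with 2765 CPM in the next. Without that cell the relative spread was 1.51 for Snrpa, 1.32 for Ntf3 and 2.27 for Sort1, so all 3 remained wide. Snrpa, Ntf3 and Sort1 were each at or below 100 CPM in most MEFs and above 1000 CPM in 2 cells.

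Other rows of this kind were Crmp1 (a cytoskeletal adaptor known from neurons), Nfx1 (a transcription factor), Bub1 (a kinase of the spindle checkpoint), Dyrk1a (a protein kinase), Bend6, Slc46a1 (a folate transporter), Prdm2 (a histone methyltransferase) and Ddx58 (the RNA sensor RIG-I), with a relative spread from 2.13 to 2.62. Among all wide rows, 82 had over 50% of their summed CPM in 1 cell, and for 49 of these that cell was among the 9 wells with under 300000 gene reads. Those 9 wells also held the highest cell of 45.8% of all measured rows and of 47.3% of the wide rows. Without its highest cell, Prdm2 had -0.41, Ddx58 0.03 and Dyrk1a 0.35, so these 3 were no longer wide, and the other 5 ranged from 0.67 (Crmp1) to 1.46 (Slc46a1). By the SD of log2(CPM + 10), only Nfx1 (0.54) of the 8 was wide. In the 35 deeper wells alone, wide rows numbered 696 and narrow rows 326. Without its own highest cell, 396 of the 685 wide rows were still wide, and 207 were wide on both the upper and the lower plate.

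Wide rows that did not rest on 1 cell included several genes of well-known function. Eln (elastin) had a relative spread of 1.72, and 1.96 without its highest cell. It was at 0 in 6 cells, above 0 and up to 100 CPM in 25, and above 1000 CPM in 7, with a median of 15.3 and a highest value of 6312 CPM. Hmox1 (heme oxygenase 1, which breaks down heme and is induced by oxidative stress) had 1.58, and 1.65 without its highest cell. It was above 1000 CPM in 15 cells, at or below 100 CPM in 23, and between these levels in 6, with a median of 93.8 and a highest value of 10920 CPM. MEFs thus fell mostly at the low or the high side for Hmox1, with few between.

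Igf2 (insulin-like growth factor 2, expressed from the paternal allele) had a relative spread of 1.33, with 6 cells at 0, 9 above 1000 CPM, a median of 257.6 and a highest cell of 4967 CPM. Its neighbour H19, a non-coding RNA expressed from the maternal allele, had 1.67, with 5 cells at 0, 6 above 1000 CPM, a median of 21.9 and a highest cell of 7056 CPM. Malat1 was wide although every cell held it, with 250.1, 4684 and 77748 CPM at the lowest, median and highest cell and a relative spread of 1.42, which was 0.97 without MEF 56, the highest, and 0.49 on the upper plate. Myadm had 2.23, which was 0.95 without MEF 50, its highest cell, and -0.64 on the lower plate.

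**Figure D3:**
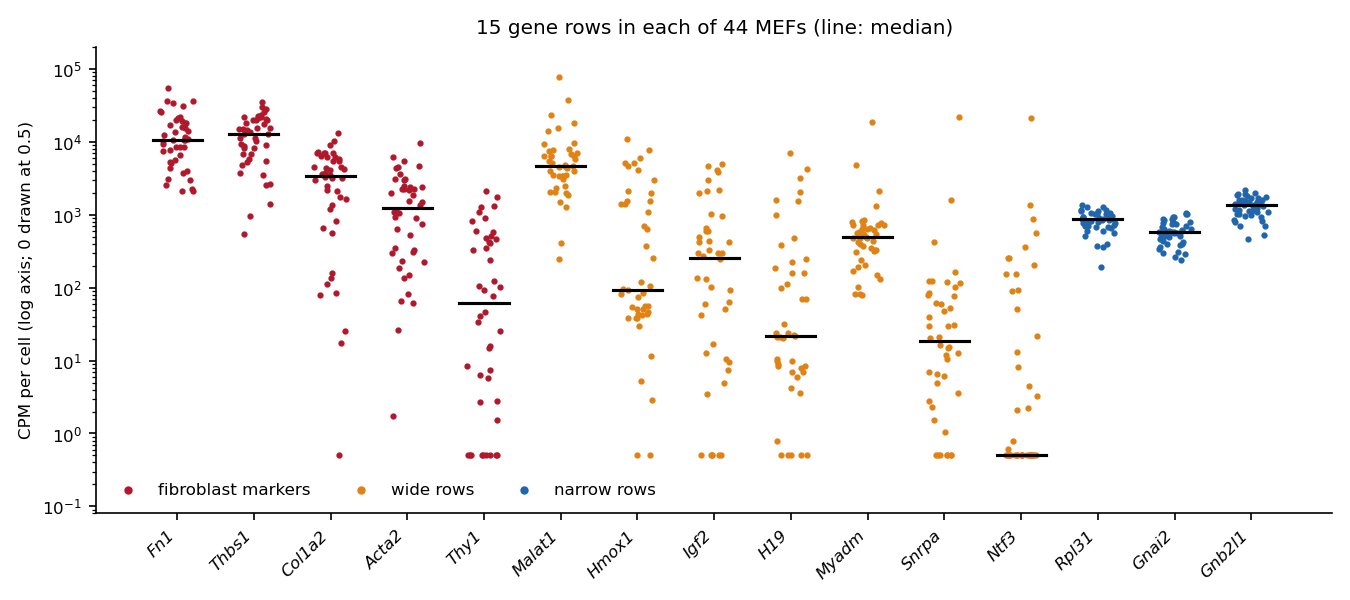
CPM in each of the 44 MEFs (log axis, 0 drawn at 0.5, black line at the median) for the 5 fibroblast markers (red), 7 wide rows (orange) and 3 narrow rows (blue). Rpl31, Gnai2 and Gnb2l1 stay close to their medians of 862, 573.7 and 1341 CPM, whereas Hmox1, Igf2 and H19 span from 0 to 10920, 4967 and 7056 CPM.

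Genes of the matrix and the growth factor binding and imprinted growth genes held many wide rows, and the machinery of translation held many narrow ones. Of 71 measured ribosomal protein genes, 0 were wide and 34 narrow, with a median relative spread of -0.47. Of 19 translation factors, 0 were wide and 9 narrow (median -0.45), with Tpt1 at -0.55 and Eef1a1 at -0.65 but Eef1g at 0.45. Nuclear genes of the respiratory chain had 0 wide and 4 narrow of 20, the proteasome 2 wide and 3 narrow of 20, lysosomal genes 1 wide and 3 narrow of 15, and endoplasmic reticulum chaperones 0 wide and 1 narrow of 11. Beside the 21% of wide and 10.1% of narrow rows among all measured rows, each of these 6 lists held a smaller share of wide rows.

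Collagens had 5 wide and 0 narrow of 11 measured genes, beside 21% wide and 10.1% narrow among all measured rows. Col12a1 (a collagen that coats fibrils) was the widest at 1.17, with a median of 751.7 and a highest cell of 8643 CPM, and Col11a1 (a fibril-forming chain known from cartilage) had 1.10. Col1a1 had 0.39 and Col4a1 (basement membrane) 0.70. Matrix glycoproteins and proteoglycans had 10 wide and 0 narrow of 22, with Fmod (2.67) and Eln (1.72) at the top. Bgn (biglycan) was near the middle at 0.44, and Sparc was low at -0.23. Matrix proteases, their inhibitors and crosslinking enzymes had 6 wide and 0 narrow of 16, led by Loxl2 (a lysyl oxidase that crosslinks collagen) at 1.32 and Mmp2 (gelatinase A) at 1.24. Timp2 (an inhibitor of metalloproteinases) had 0.22 and Serpinh1 (the collagen chaperone Hsp47) -0.23. On this scale Mmp2 and Loxl2 were thus less even from cell to cell than Serpinh1.

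Growth factor binding and imprinted growth genes had 8 wide and 0 narrow of 14, with Igfbp2 (an IGF-binding protein) at 2.02 and 58.9% of its CPM in MEF 86, whereas Grb10 (an adaptor of the insulin receptor) at -0.16 and Igfbp7 at 0.26 were not wide. All 5 measured cytokines and chemokines were wide. Cxcl12 (the ligand of Cxcr4) was by far the highest, at 1391 CPM and in all cells, from 4.63 to 5260 CPM. Csf1, Ptgs2 (cyclooxygenase 2) and Cxcl14 stood at 162.2, 153.1 and 93.9 CPM. TGF-beta and YAP targets had 3 wide and 0 narrow of 15, close to the 21% of wide rows among all measured rows. Ctgf had 0.50 and Axl 0.34.

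Mitochondrially encoded protein genes had 9 wide and 0 narrow of 12, beside 21% wide and 10.1% narrow among all measured rows. The range of mt-Co1 was 678.2, 2525 and 26885 CPM at the lowest, median and highest cell, with the maximum in MEF 53. Its relative spread was 0.98 both with and without that cell, and mt-Atp6 was the widest of the list at 1.22. The 5 highest cells of mt-Co1, from 12232 CPM up, all lay in plate column 7, and no cell of another column passed 9336 CPM. The smooth muscle contractile list had 2 wide and 0 narrow of 11, near the 21% of wide rows among all measured rows. The wide ones were Acta2 (0.88) and Actg2 (0.54, read in 18 cells). The actin cytoskeleton list had 3 wide and 3 narrow of 25. Glycolysis had 2 wide and 2 narrow of 12, heat shock genes 3 and 1 of 12, cholesterol synthesis 2 and 0 of 10, and p53 targets and arrest genes 2 and 2 of 12. From glycolysis on, the wide shares were near the 21% over all measured rows.

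Cell cycle genes were low in the median MEF and high in single cells, and their summed level was 0 in only 2 cells for the S phase list and 1 for the G2 and M phase list. The summed level of 23 S phase genes had a median of 181.8 CPM and a highest cell of 4424 CPM, and that of 24 G2 and M phase genes a median of 92.3 and a highest of 8956 CPM, both in MEF 80. Bub1 alone gave 5565 CPM of the G2 and M phase sum in MEF 80, a shallow well of 157772 gene reads. Top2a (topoisomerase II alpha) was read in 24 cells, with a median of 1.02 and a highest value of 1548 CPM in MEF 50, Mki67 (Ki-67) in 16 cells with a highest of 779.6 CPM, and Cdk1 in 16 cells with a highest of 675 CPM. Ccnb1 (cyclin B1) was read in 11 cells (25%, exact binomial interval 13.2 to 40.3%). Of 20 p53 targets and arrest genes, 2 were read in all cells, and those of highest CPM are given here. Cdkn2a, also an arrest gene, was at 0 in 4 cells. Cdkn1a (p21) was read in all cells at 222.4, 1005 and 4410 CPM at the lowest, median and highest cell, Ccng1 (cyclin G1, a p53 target) in all cells at 368.3 to 2315 CPM, and Mdm2 in 43 cells at 362 CPM.

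Of the mesenchymal transcription factors, 3 of 12 measured were wide and 0 narrow, beside 21% and 10.1% among all measured rows. Of the limb and positional factors 0 of 2 were wide, and of the Hox genes 2 of 2. Prrx1 and Prrx2, homeobox genes of limb and face mesenchyme, were read in 33 and 40 cells at 266 and 129 CPM. Of 37 Hox genes in the table, 30 had a MEF read. Hoxa5 was the highest at 155.3 CPM (26 cells), followed by Hoxc6 at 41.3, Hoxb5 at 40.9 and Hoxb9 at 39.9 CPM. The Hox genes without a read were Hoxb13, Hoxc11, Hoxc12, Hoxd1, Hoxd11, Hoxd12 and Hoxd13. Their summed level ran from 0 in 1 cell to 2494 CPM, with a median of 441.1. Sox9 (the cartilage factor) had 58.5 CPM in 18 cells, of which MEF 66 held 59%, and Col2a1 (cartilage collagen) 68.4 CPM in 17 cells.

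Markers of other cell types were mostly low, with neural and pericyte markers high in single cells. Macrophage and blood markers were at 0 for 12 of 16 genes, among them Cd68, Emr1, Tyrobp and Gata1, and their sum was 0 in 38 cells. A count of 0 over 35155326 gene reads allows up to 0.0853 CPM (3 reads, for counting error only). Skeletal and heart muscle markers were at 0 for 13 of 16 genes, Myod1 and Myog included, and the sum did not pass 207.8 CPM in any cell. Endothelial markers were at 0 for 6 of 13, Pecam1 and Cdh5 included, with Eng highest at 34.7 CPM. Epithelial markers were at 0 for 7 of 15, Krt8 and Krt14 included, with Krt19 highest at 16.9 CPM.

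Pluripotency markers were at 0 for 2 of 17 genes, Nanog and Fgf4, and their summed level had a median of 46.7 and a highest value of 448.2 CPM. Dppa5a, an embryonic stem cell gene, was read in 42 MEFs at 17.4 CPM and also gave 43 reads in the 4 negative control wells, so its reads in MEFs cannot be told apart from carry-over. Neural and glial markers were at 0 for 4 of 16 genes, and Nes (nestin) was the highest at 132.8 CPM in 29 cells. Their sum had a median of 145.5 CPM and reached 3822 CPM in MEF 83, and the measured members, Nes and Tubb3 (a neuronal tubulin), were both wide. Pericyte markers were at 0 for 2 of 10, with Pdgfrb, also a fibroblast receptor, at 105.7 CPM in 35 cells, and their sum had a median of 328.5 CPM and reached 2379 CPM in MEF 81. The part of any other cell type in the spread was not tested.

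Over all 5315430 pairs of measured rows, the median Spearman rho across the 44 cells was 0.047, and 11051 pairs (0.208%) reached 0.5, the value used to call a pair linked. At least 1 linked partner was found for 3063 of 3261 rows. All cells share a culture, a plate and a range of depth, and rho is a description over 44 points. When each cell was thinned to 50000 reads, 0.127% of pairs were linked, and given the number of genes detected, 0.121%. The rows with most linked partners, also picked after their values were seen, were E2f3 (a factor of S phase entry, 55), Akt2 (a kinase of insulin signalling, 53), Fau (a ribosomal protein fused to a ubiquitin-like protein, 47) and Wdfy3 (a scaffold of autophagy, 46), and the rho of E2f3, Akt2 and Wdfy3 with the number of genes detected was 0.68, 0.74 and 0.63. For Fau it was 0.16.

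The tightest group was made by genes of the mitochondrial genome, which are cut from shared precursor transcripts. All 91 pairs of mitochondrially encoded rows were linked, with a median rho of 0.70. The strongest was mt-Co2 with mt-Co3 (2 subunits of cytochrome oxidase) at 0.92, with 0.94 on the upper and 0.92 on the lower plate. For the 12 protein-coding rows the median rho was 0.71, and it stayed between 0.69 and 0.74 when each cell was left out in turn. Their summed level ran from 1761 to 73102 CPM and differed between plate columns. In plate column 7, with 8 MEFs, the median sum was 32995 CPM, and in the other columns the medians lay between 5107 and 9648 CPM with no cell above 21277 CPM. Without column 7, a choice made after the values were seen, the median rho of the protein-coding rows was 0.56 over 36 cells, and 60 of the 91 pairs were linked. The part of plate position in these values was not tested.

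Ribosomal protein genes came next, with 586 of 2485 pairs (23.6%) linked and a median rho of 0.37. The strongest pair was Rpl27 with Rpl19 at 0.83, and Rpl10a with Rpl36a had 0.80. The median rho was 0.44 on the upper and 0.28 on the lower plate, and with median-of-ratios scaling it was 0.23. Pairs in which neither gene was ribosomal or mitochondrial were linked in 0.199% of cases.

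**Figure D4:**
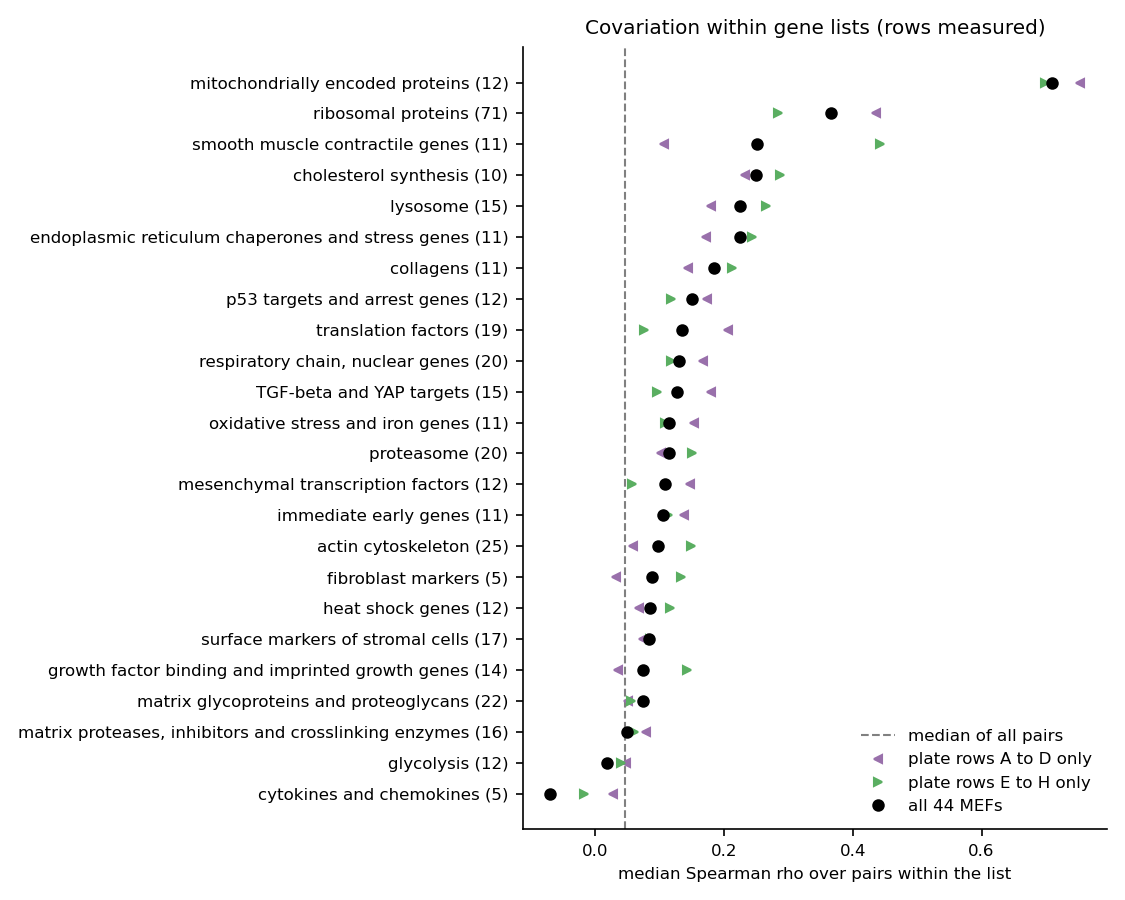
Median Spearman rho over all pairs of measured genes within each list of at least 10 pairs, for the 44 MEFs (black) and for the upper (purple) and the lower plate (green), with the number of measured genes in brackets. The dashed line is the median of all pairs, 0.047, and only the cytokine and glycolysis lists lie below it in all 44 cells.

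The smooth muscle contractile list had a median rho of 0.25 over 55 pairs, and 7 pairs (12.7%) were linked, against 0.208% of all pairs. Close to it were cholesterol synthesis (0.25), lysosomal genes (0.23) and endoplasmic reticulum chaperones and stress genes (0.22). After thinning, these lists had, in that order, 0.20, 0.21, 0.22 and 0.14. Acta2 was most like Tagln (transgelin, an actin cross-linker of smooth muscle) at 0.77, Myl9 (the regulatory light chain of smooth muscle myosin) at 0.73, Ptpla, now called Hacd1 (a fatty acid elongation enzyme known from muscle), at 0.66, Myl6 (the essential myosin light chain) at 0.60 and 2900073G15Rik, now called Myl12a (a regulatory light chain), at 0.54. The likeness was over 44 cells among 3261 rows, of which 0.337% had a rho of 0.5 or more with Acta2. Tagln ranged from 0 to 3046 CPM with a median of 766.1, and Myl9 from 0 to 652.8 CPM with a median of 114.8.

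The same pairs were weaker on the upper plate. Acta2 with Tagln had a rho of 0.67 there and 0.85 on the lower plate, and the median of the list was 0.11 and 0.44. Given the number of genes detected, Acta2 with Tagln was still 0.75, and leaving out each cell in turn gave 0.75 to 0.82. MEF 82 alone had no Tagln read, with 2188 CPM of Acta2.

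**Figure D5:**
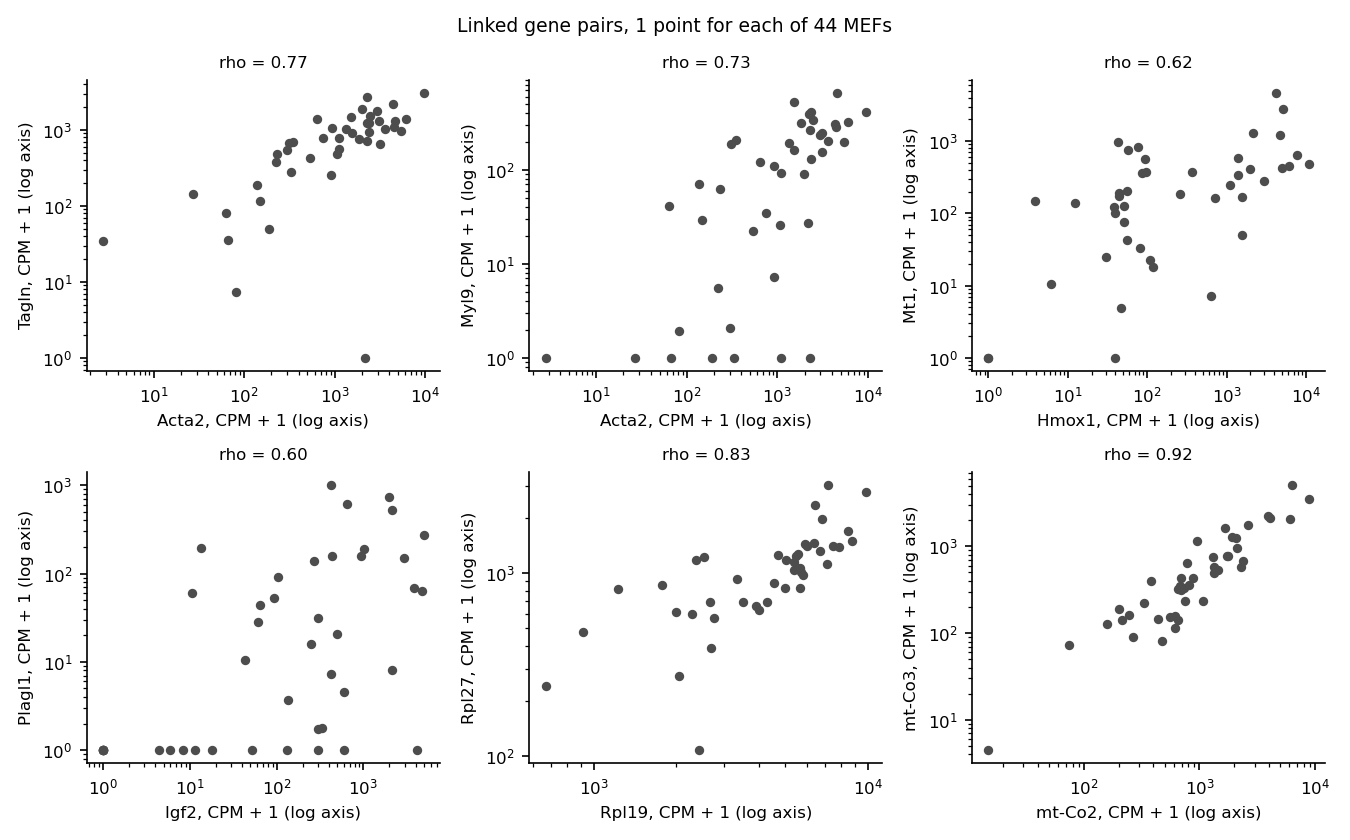
CPM + 1 of 6 linked gene pairs, both axes on a log scale, with 1 point for each of the 44 MEFs and Spearman's rho above each panel. Acta2 with Tagln and mt-Co2 with mt-Co3 follow a line over most of their range, whereas in Igf2 with Plagl1 many cells lie at 0.

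The bases before the start of contractile genes are shown because some pairs of the list went together (7 of 55 linked). Tpm1 and Cald1 were chosen by their CPM and not by their rho. The 100 bases before the first start that RefSeq's promoter table (GRCm38.p6) lists are printed for the 3 members of highest CPM with an entry, and for Myl9, which was added after its values were seen. Capitals mark CCAAT, the motif bound by NF-Y, which reads ATTGG on the other strand. The motif TATAAA (the TATA box), the motif TTTGAA, the E2F motifs TTTCCCGC along with TTTGGCGC, and the CArG box (bound by serum response factor, searched only as its exact consensus of CC, then A or T 6 times, then GG) were also searched on both strands and had no match in these 4 windows. Inexact forms of the CArG box were not searched. Runs 1 base off its consensus, such as ccctatatgg and ccttgtttgg in the Acta2 window, are therefore not marked. No match says only that these letters are not in the window.
Tpm1, chr9:67049214-67049313, minus strand: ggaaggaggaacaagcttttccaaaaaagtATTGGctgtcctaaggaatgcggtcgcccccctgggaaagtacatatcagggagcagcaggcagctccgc
Cald1, chr6:34598404-34598503, plus strand: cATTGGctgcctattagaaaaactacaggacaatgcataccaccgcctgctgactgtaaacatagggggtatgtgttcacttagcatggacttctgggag
Acta2, chr19:34255374-34255473, minus strand: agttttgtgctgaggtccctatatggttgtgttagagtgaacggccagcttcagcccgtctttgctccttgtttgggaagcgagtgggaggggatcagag
Myl9, chr2:156775364-156775463, plus strand: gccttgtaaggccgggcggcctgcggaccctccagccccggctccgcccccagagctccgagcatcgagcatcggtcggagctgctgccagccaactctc
By the gene spans of the same assembly, Acta2 (chr19:34240336-34255585) and Tpm1 (chr9:67022590-67049672) extend beyond the listed start, so their windows lie inside the gene, and the Cald1 window overlaps the first bases of its gene (chr6:34598495-34775469). Tpm1 and Cald1 hold 1 CCAAT each, 70 and 99 bases before the start, and Acta2 and Myl9 hold none. Over the 250 bases before the start, 2 of the 15 contractile genes with an entry (13.3%) held a CArG box, against 1.40% of all 27025 promoters, and 10 (66.7%) held CCAAT, against 34.5%.

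G2 and M phase genes were the second group whose promoters are shown, since the measured members went together. Of the list, 4 genes were measured, with a median rho of 0.42 and 2 of 6 pairs linked, against 0.047 and 0.208% over all pairs. Ccnb1 lay under the mean of 50 CPM, and its likeness was computed all the same. The rows most like it were Stmn1 (stathmin, which takes microtubules apart) at 0.60, 2810417H13Rik, now called Pclaf (a partner of the replication clamp), at 0.60, Cks2 (a subunit of cyclin-dependent kinases) at 0.58, Zfp422 at 0.57 and Srsf1 (a splicing factor) at 0.56. Stmn1 and 2810417H13Rik both had their highest cell in MEF 80, at 4538 CPM for Stmn1.

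In the sequences below, capitals mark CCAAT or ATTGG and the motif TTTGAA, which reads TTCAAA on the other strand and is the core of the cell cycle homology region known from such genes.
Top2a, chr11:99024190-99024289, minus strand: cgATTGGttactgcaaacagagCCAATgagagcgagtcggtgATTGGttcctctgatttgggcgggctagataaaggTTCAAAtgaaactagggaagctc
Cdk1, chr10:69352913-69353012, minus strand: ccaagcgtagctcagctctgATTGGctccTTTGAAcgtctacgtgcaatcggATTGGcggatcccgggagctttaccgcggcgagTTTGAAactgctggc
Cks2, chr13:51645132-51645231, plus strand: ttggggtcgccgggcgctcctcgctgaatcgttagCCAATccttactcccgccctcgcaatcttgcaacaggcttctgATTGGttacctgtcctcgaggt
Top2a holds 3 CCAAT motifs and 1 TTTGAA, Cdk1 holds 2 of each, and Cks2 holds 2 CCAAT motifs. Over 250 bases, 18 of the 20 G2 and M phase genes with an entry (90%) held CCAAT and 7 (35%) held TTTGAA, against 34.5% and 16.3% of all promoters. The Top2a window overlaps the first bases of its gene (chr11:98992947-99024199). A match is a run of letters and not a shown binding site.

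Motifs were also counted over the spread. When the measured rows were put into 5 groups of equal size by relative spread, TATAAA within 250 bases was held by 4.53% of promoters in the narrowest group, by 6.35%, 7.22% and 6.38% in the next 3, and by 9.30% in the widest, against 13% of all promoters. Within 100 bases the shares with TATAAA were 1.08%, 3.28%, 3.71%, 2.26% and 3.10% from the narrowest to the widest group, against 5.95% of all promoters. The narrowest group was again the lowest, but the widest was not the highest. CCAAT within 250 bases stayed between 32.6% and 39.3% with no order. The median transcript length in the deposited table was 2363 bases in the narrowest group and 3549.5 in the widest, and it was higher in each group than in the one before. The rows with narrow spread were thus the shorter genes, with ribosomal proteins (median 703 bases) among them, and the part of length in the spread was not tested.

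Hmox1 varied with a small group of genes. The rows most like it were Eif4g3 (a scaffold of translation initiation) at 0.63, Mt1 (metallothionein 1, which binds zinc and copper) at 0.62, Tcn2 (the carrier of vitamin B12) at 0.59, 6430527G18Rik, now called Irf2bpl, at 0.59 and Ergic3 (a protein of transport between endoplasmic reticulum and Golgi) at 0.57. Mt1 had a median of 186.6 and a highest cell of 4598 CPM, and its rho with Hmox1 was 0.56 on the upper and 0.67 on the lower plate. The list of oxidative stress and iron genes as a whole had a median rho of 0.12, with 3 of 55 pairs (5.45%) linked. Over all pairs of measured rows these values were 0.047 and 0.208%. The rho of Hmox1 with Mt1 was thus well above the median of the list.

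Igf2 was most like Tulp3 (a protein of cilium transport) at 0.70, D11Wsu99e, now called Fam104a, at 0.65, Itga11 (a collagen receptor) at 0.64, Zc3h11a (an mRNA export protein) at 0.62 and Plagl1 at 0.60. Plagl1 is an imprinted zinc finger factor known to act on the Igf2 locus. It was read in 28 cells, and its rho with Igf2 was 0.75 on the upper plate, 0.36 on the lower plate and 0.48 given the number of genes detected. Igf2 itself had a rho of 0.46 with the number of genes detected.

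For the collagen Col1a2 the nearest rows were weaker. Eif4h (an initiation factor) at 0.50 and Col1a1, its partner chain in type I collagen, at 0.50 led, followed by Qsox1 (an enzyme of disulfide bonds) at 0.46. Col1a1 with Col1a2 had a rho of 0.70 on the upper and 0.21 on the lower plate. Thy1 was most like Hspa9 (the mitochondrial Hsp70) at 0.54, Copz1 (a subunit of the COPI coat) at 0.52 and Mdh2 (malate dehydrogenase) at 0.50. Fos, the immediate early factor, was read in 27 cells and was most like Serf1 at 0.52 and Cyr61, a matrix protein induced by serum, at 0.52. Ccl2, a chemokine read in 12 cells and under the mean of 50 CPM, was most like Adk (adenosine kinase) at 0.57. None of the rows most like Col1a2, Thy1 or Fos passed a rho of 0.54.

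Linked pairs outside all of the groups above, listed after their values were seen, were of mixed kinds. Cox6c with Cox7b (both of cytochrome oxidase) had 0.75, Ndufa11 with Ndufa4 0.74, and Atpif1 (the inhibitor of ATP synthase) with Ndufb2 (complex I) 0.72. Fbxw11 (a ubiquitin ligase subunit) with Atp6v1b2 (a subunit of the vacuolar proton pump) had 0.74, Sbno2 with Pkd2 0.73 and Mrps24 with Sos1 0.73. Ngfrap1 and Wbp5, now called Bex3 and Tceal9, had 0.75, and both lie on the X chromosome. Snhg8 with Gm9846 had 0.77, and 80.8% of the reads of Gm9846 were unique. At the opposite end, Ube2l3 (a ubiquitin-conjugating enzyme) with Ide (insulin-degrading enzyme) had -0.71 and Hspa9 with Junb -0.68. Pairs at -0.5 or below numbered 1712.

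Genes close together on a chromosome were also compared. Of 642 pairs whose starts lay within 100000 bases on the same strand, 9 (1.40%) were linked, against 2 of 571 (0.350%) on opposite strands. Among pairs farther apart on the same chromosome 0.314% were linked, near the share on opposite strands, and among pairs on different chromosomes 0.201%. The difference between the strands was not tested, and overlapping or near-identical genes among these pairs can share reads.

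The summed levels of 14 lists were also set against each other, in 91 pairs. Lysosomal genes with endoplasmic reticulum chaperones had the highest rho at 0.43, then S phase with G2 and M phase genes at 0.38 and contractile with actin cytoskeleton genes at 0.35. On the upper and the lower plate these were 0.29 and 0.56, 0.52 and 0.15, and 0.06 and 0.54. The lowest were actin cytoskeleton with oxidative stress and iron genes at -0.42, endoplasmic reticulum chaperones with ribosomal proteins at -0.40, matrix glycoproteins with mitochondrially encoded genes at -0.36 and collagens with S phase genes at -0.34. CPM are shares of a cell's reads, so a rise in 1 large group lowers the others.

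In a principal component analysis of log2(CPM + 10), no axis held much of the variance. The first component held 9.10% and followed the number of genes detected (rho 0.91), with Igf2, 2210013O21Rik (now Nbdy), Tpp1 (a lysosomal protease), Atp2a2 (the calcium pump SERCA2), Hk1 (hexokinase 1) and E2f3 at its high end. The second held 5.18% and had a rho of -0.16 with the number of genes detected. Its high end was Mt1, Ssr4 (a translocon subunit), Ndufb2, Hmox1, Cyba (a subunit of NADPH oxidase) and Axl, and its low end Tmpo (a protein of the nuclear envelope), Myh10 (non-muscle myosin IIB), F3 (tissue factor), Stmn1, Cxcl12 and Sdpr, now called Cavin2. Mt1 and Hmox1 thus loaded at the opposite end of the second axis from Stmn1 and Cxcl12. Whether the MEFs form groups along it was not tested.

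The third component held 4.17%. Its high end was mt-Rnr1, mt-Nd2 and mt-Rnr2 of the mitochondrial genome, Hmga2 (a chromatin protein of growing mesenchyme), Mbnl1 and Csnk2a1, and its low end Mmp2, Mylip, Surf4, Sorbs2, Thbd (thrombomodulin) and Rhob. It had a rho of 0.49 with the mitochondrial share of a cell and -0.46 with the plate column, and the part of plate position in it was not tested.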

How the data were processed

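The deposited table holds whole-number read counts per gene row and well, and the repeat and spike-in rows beside them (21711 gene, 1217 repeat and 8 spike-in rows). Per the file headers, a count is the largest number of reads on a gene's exons, including reads that also map elsewhere. Reads had been trimmed of the well barcode, of leading G and of trailing A bases, and short or poor reads dropped, per the deposited notes. Bowtie is named in the submitters' processing notes without a version, and the genome build is not given in the sources used here. The deposited columns of uniquely mapped reads over the plate and of transcript length were used as given. No molecular identifiers are mentioned, so intervals and floors cover counting error only.

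Gene reads were scaled to CPM over gene rows within each well, and pooled CPM over the 44 MEFs have exact 95% Poisson intervals. Detection was 1 read or more, with exact 95% binomial (Clopper-Pearson) intervals. Spread and covariation used rows with a mean of at least 50 CPM and 50% unique reads, rows with identical values being kept once. Lists, medians and pairs were computed with Python 3.11.15, numpy 2.4.6, pandas 2.3.3 and scipy 1.17.1, and the scripts were tested on simulated data. No group test was made, no doublet caller was run, and depth per MEF was 63938 to 1883709 gene reads. Alternatives changed the scaling, the depth, the wells, the filters and the measures.

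Named rows are the 5 markers, the 25 highest in CPM, the 20 widest and 15 narrowest, from each of 37 lists the 4 highest and 2 widest members, the 12 most linked pairs outside ribosomal protein genes, 6 loadings at either end of 3 components, and the 5 rows most like each of 8 chosen genes. Rows of uneven detection, rows with most partners, pairs outside ribosomal and mitochondrially encoded genes and the most opposed pairs were picked after their values were seen. Of the 12 most linked pairs outside ribosomal protein genes, all were mitochondrially encoded. Some rows these rules name are not reported here. The cells and the gene lists were chosen with earlier results of these data known. Gene positions and promoters are RefSeq's, on GRCm38.p6.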

Additional observations from a re-analysis of the deposited data

Results flagged for a closer look

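Reads on repeat rows, which no comparison above uses, were present in every MEF well. Their median was 90516.5 reads per well, from 9850 in MEF 53 to 321721 in MEF 61, against 9048, 9073, 5118 and 228 in the 4 wells without a cell. They made up 5.96% to 23.7% of gene and repeat reads together, with a median of 11.1%. B2_Mm1a, a short interspersed element of the mouse, held 19.3% of them, SSU-rRNA_Hsa (small subunit ribosomal RNA) 15.1%, B2_Mm1t 11.8% and B2_Mm2 9.02%. Repeat rows count both strands, per the file headers.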

How the results depend on the processing

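No paired analysis was possible because the MEFs form 1 group and are compared with no other. Without ribosomal protein genes, the 100 highest rows held 27.7% of reads. Rows read in all MEFs numbered 202 at 5 reads or more, 213 after thinning to 50000 reads and 853 in the 35 wells of at least 300000 reads. Wide rows numbered 104 by the SD of log2(CPM + 10), 1175 at a mean of at least 20 CPM and 375 at 100 CPM, and narrow rows 159, 513 and 209, with 154 when each gene lost its highest cell. The cause was not tested beyond the number of rows these minimums leave. Linked pairs made up 0.330% by Pearson's r of log2(CPM + 10), 0.955% with a pseudocount of 1, 0.127% after thinning, 0.121% given the number of genes detected, 1.40% on the upper plate and 3.34% on the lower, both of which have fewer cells, and 0.182% to 0.236% when each cell was left out in turn. The same leave-one-out range of the median rho was 0.689 to 0.741 for mitochondrially encoded proteins (0.616 by Pearson's r with a pseudocount of 1, and 0.560 without the MEFs of plate column 7, a choice made after the values were seen), 0.334 to 0.386 for ribosomal proteins and 0.217 to 0.261 for contractile genes.

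The sign of a median rho turned for cytokines (0.028 on the upper plate), for cartilage, bone, tendon and fat markers (-0.177 by r of log2(CPM + 10), -0.030 with a pseudocount of 1, -0.172 after thinning and -0.078 on the upper plate) and for pericyte markers (-0.0093 by r of log2(CPM + 10), -0.0029 after thinning, -0.017 on the lower plate and -0.039 in wells of at least 300000 reads). By the SD of log2(CPM + 10), the relative spread was -0.059 for Fmod, -0.0092 for Bub1, -0.35 for Bend6, -0.081 for Slc46a1, -0.43 for Atf7ip2, -0.13 for Ddx58 and -0.037 for Atrn. Without the highest cell it was -0.41 for Prdm2, -0.22 for Ogfr and -0.47 for Atrn. On the lower plate it was -0.64 for Myadm. The cause was not tested.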
